A study of Danio rerio with 53 samples.

Results

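Thymic B cells of zebrafish were compared between lines whose green reporter is named for cd79b and lines whose green reporter is named for cd79a. The members were all libraries of thymus population T4, which the labels call thymic B, and they number 11 of the 53 libraries of the series: 5 from the cd79b lines and 6 from the cd79a lines. The series sorted lymphocyte populations by fluorescence from dissected thymus and marrow and measured their RNA with QuantSeq FWD, which counts 3-prime ends of polyadenylated transcripts. The cd79b lines were rag2RFP-cd79bGFP (libraries 4, 5 and 6) and lckmCherry-cd79bGFP (libraries 19 and 20). The cd79a lines were rag2RFP-cd79aGFP (libraries 33, 34 and 35) and lckmCherry-cd79aGFP (libraries 51, 52 and 53). Every animal line thus carried a green and a red transgene, the red one driven by rag2 or by lck, and no line without transgenes is among the libraries. The labels list no treatment, age or number of animals, and do not say whether libraries of a line came from separate animals. The p-values thus measure only spread between libraries, which may in part be technical. The main gene tests estimated that spread over all 53 libraries of the series, marrow and T lineage sorts included. Each line has its own run of sample numbers, and line and batch cannot be told apart.

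CD79A and CD79B are the signalling partners that sit beside membrane immunoglobulin in the B cell receptor; their cytoplasmic tails recruit kinases when antigen is bound. Both genes are switched on early in the B lineage and are therefore used to drive B cell reporters. B cells are a small resident population of the vertebrate thymus, where they are known for high MHC class II and for presenting antigen to developing T cells. The question put to these libraries is whether cells with the same population name, sorted through either promoter, hold the same transcripts when the red reporter is held fixed.

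The libraries of the cd79b lines were shallower and held fewer genes than those of the cd79a lines. Total counts were 7756073, 8014697 and 8677058 in rag2RFP-cd79bGFP and 8732327 and 8960775 in lckmCherry-cd79bGFP, against 9118484 to 18778603 with a median of 12745850 in the cd79a lines. Every cd79b library was below every cd79a library. Genes with at least 1 count numbered 3803, 5156, 5941, 6176 and 7063 in libraries 4, 5, 6, 19 and 20, against a lowest of 5884, a median of 7315.5 and a highest of 8910 in the cd79a lines. The detected genes overlapped between the sides when the red reporter was ignored, and only library 6 exceeded a cd79a library of its own reporter pair. The mean difference within reporter was -1617 genes (-1468 in the rag2 lines and -1767 in the lck lines; exact two-sided permutation within reporter over 200 arrangements, p = 0.01). Thinning every library to 7756073 counts left a difference of -1559 genes (exact permutation p = 0.01), and counting only genes with at least 10 counts gave -1620 (exact permutation p = 0.005, the smallest the arrangements can give). The share of counts in the 20 most abundant genes was 22.2 to 27.7% in the cd79b lines and 22.4 to 28.2% in the cd79a lines. A gene without a count can hold up to 3 counts, or 0.357 CPM (counts scaled to a fixed library total) on average in the cd79b libraries and 0.244 CPM in the cd79a libraries; this limit covers counting error only. In sorted bulk RNA, fewer cells of a type and less RNA per cell cannot be told apart.

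The gfp transgene, which encodes the protein the cells were sorted on, was lower in the cd79b lines. Its level was 713, 477, 56.4, 534 and 305 CPM in libraries 4, 5, 6, 19 and 20, against a lowest of 1093, a median of 2299 and a highest of 5773 CPM in the cd79a lines. Every cd79b library lay below every cd79a library. The mean difference within reporter was -2.94 on the log2(CPM + 1) scale, -3.85 in the rag2 lines and -2.03 in the lck lines (exact two-sided permutation within reporter, p = 0.005, the smallest possible). The cd79a gene stood at 599, 560.3, 197, 544 and 606 CPM in the cd79b lines, against 137 to 805 CPM with a median of 524 CPM in the cd79a lines (log2 fold change -0.28 ± 0.53 SE, edgeR adjusted p = 0.94). The cd79b gene was low on both sides, at 0, 38.7, 7.84, 69.9 and 15.0 CPM in the cd79b lines and 14.4 to 98.5 CPM in the cd79a lines (-1.17 ± 0.85, edgeR adjusted p = 0.55). Neither endogenous gene passed the test. The plot of depth, detected genes and gfp shows these 3 measures library by library.

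**Figure D1:**
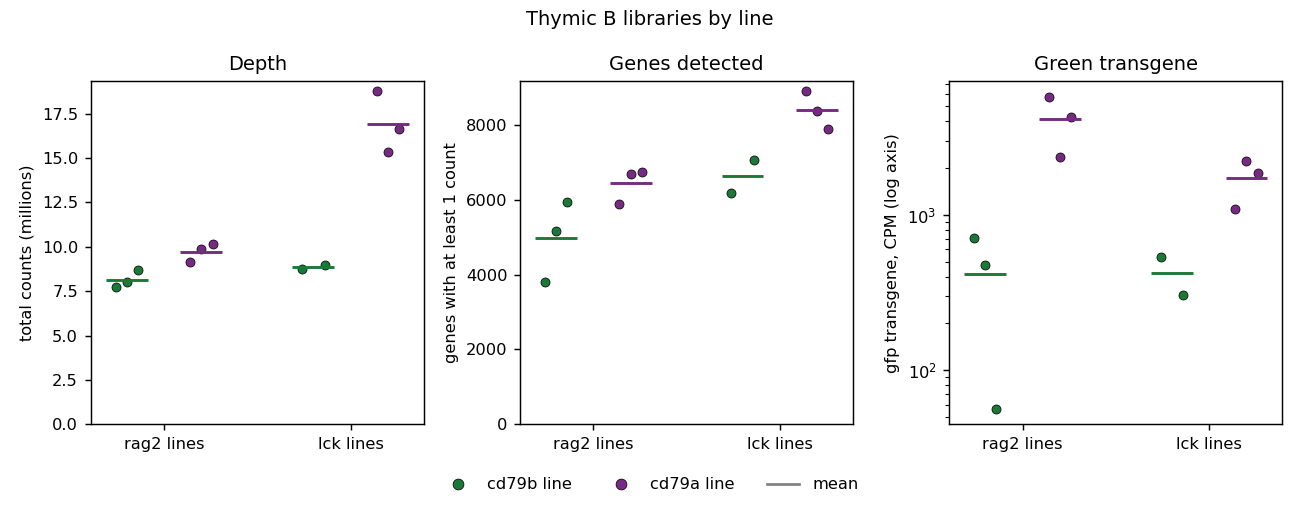
Total counts, genes with at least 1 count, and gfp transgene level (CPM, log axis) of the 11 thymic B libraries; points are libraries, bars are means, and the cd79b line stands left of the cd79a line in each red reporter pair. Every cd79b library is lower than every cd79a library in total counts and in gfp.

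The sort was checked against markers of thymic B cells and of other cell types. Of 7 thymic B markers, 5 were in the table, and their summed level was 10542 to 15035 CPM in the cd79b lines and 3873 to 12691 CPM in the cd79a lines. Most of that sum was cd74a, the invariant chain that escorts MHC class II, at 8582, 8759.5, 12468, 11982 and 11623 CPM in the cd79b lines, against 2830.3 to 9126 CPM with a median of 6435 CPM in the cd79a lines. The ranges overlapped and the difference did not pass (0.47 ± 0.27, edgeR adjusted p = 0.43). The other invariant chain gene, cd74b, leaned the other way, at 1077 to 2108 CPM with a median of 1831 CPM in the cd79b lines. In the cd79a lines cd74b was at 767 to 2825 CPM with a median of 2075 CPM (-0.39 ± 0.30, edgeR adjusted p = 0.59). PAX5, the transcription factor that maintains B cell identity, was at 284, 426, 254, 171 and 141 CPM in the cd79b lines, against 57.0 to 153 CPM with a median of 114 CPM in the cd79a lines (0.78 ± 0.55, edgeR adjusted p = 0.54). Markers of other cell types were found on both sides, and none of the markers found was at 0 in all 11 libraries. The 5 T lineage markers found of 6 summed to 0 to 111 CPM in the cd79b lines and 10.5 to 50.6 CPM in the cd79a lines. Of 4 myeloid markers 2 were found, at 0 CPM in all cd79b libraries and 0 to 15.4 CPM in the cd79a libraries. The wider list of 20 myeloid genes summed to 1751 to 3571 CPM with a median of 2801 CPM in the cd79b lines, against 1349.6 to 2465 CPM with a median of 1567 CPM in the cd79a lines, and 5 to 9 of its members had a count in the cd79b lines and 7 to 11 in the cd79a lines. None of them passed in edgeR. At an unadjusted p under 0.05, 3 were higher (15%) and 1 lower (5%) in the cd79b lines, beside 5.35% and 9.68% of all genes. DESeq2 called 2 higher and 7 lower, beside 7.39% and 18.6% of all genes. The same list summed to 1120 to 2063 CPM in thymic T Stage II and 1365 to 2924 CPM in marrow B Stage I of the rag2 lines. A sum of this size is thus not particular to the thymic B sorts, and its cell of origin was not tested. The 4 thymic epithelium markers found of 5 summed to 0 to 552 CPM in the cd79b lines and 26.9 to 279 CPM in the cd79a lines. Erythroid markers, 2 of 4 found and almost wholly the globin gene hbaa1, summed to 114 to 1608 CPM in the cd79b lines and 35.1 to 493 CPM in the cd79a lines. The lowest edgeR adjusted p among these 18 markers was 0.18, for cd8a. The part of other cells in the differences below was not tested. The genes behind the red reporters also did not pass: lck was at 0 to 66.2 CPM in the cd79b lines and 0 to 24.4 CPM in the cd79a lines (edgeR adjusted p = 0.39), and RAG2 was at 0 to 84.6 CPM in the cd79b lines and 0 to 155 CPM in the cd79a lines (edgeR adjusted p = 0.35).

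Across all genes the difference between the cd79b and the cd79a lines was small in number and leaned towards lower values in the cd79b lines. With the red reporter as a covariate, 106 of 14423 genes passed an adjusted p of 0.05 in edgeR, which is 0.735% of the genes tested; 27 were higher (0.187%) and 79 were lower (0.548%) in the cd79b lines. At an unadjusted p under 0.05 there were 2168 genes, 772 higher (5.35%) and 1396 lower (9.68%) in the cd79b lines, and DESeq2 called 3472 (25.9%) of the 13383 genes to which it gave an adjusted p, 989 higher (7.39%) and 2483 lower (18.6%). The lean depends on the scaling: with median-ratio size factors the same fit called 42 genes higher (0.291%) and 38 lower (0.263%), so that 52.5% of its calls were higher, against 25.5% under TMM. TMM placed the median of all genes at -0.12 on the log2 scale and median-ratio scaling placed it at 0.00. Both medians include 2065 genes with no count in any thymic B library, whose fitted values are near 0. Over the 11852 genes with a usable value the TMM median was -0.43, with genes at 0 on one side set to their bound. All 27 higher genes and 38 of the 79 lower genes were called under both. Adding the number of detected genes as a covariate gave 62 higher and 23 lower calls (0.589% together), of which 5 and 4 were among the original ones. The other settings called 114 genes with a mean per line, of which 82 were lower (0.569%), 186 after a filter on low counts (2.15%), 61 after thinning every library to 7756073 counts (0.423%) and 44 in the 11 libraries alone (0.356%). In that last fit the spread came from thymic B libraries only. Of its 15 higher and 29 lower calls, 7 and 22 were among the original ones.

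The calls also moved with single libraries. Without library 20 edgeR called 183 genes. The count fell to 55 without library 34, 59 without library 35, 66 without library 53, 67 without library 4, 68 without library 51 and 70 without library 19. It was 77 to 130 without any other library. Of the 106 calls, 23 passed whichever library was left out, 4 of them higher and 19 lower, and 43 passed in at most 5 of the 11 fits. Detection differed as widely as level. The median gene had a count in 1 of 5 cd79b libraries and in 3 of 6 cd79a libraries, 382 genes were found in 5 or 6 cd79a libraries but in at most 1 cd79b library, and 11 genes showed the reverse in 4 or 5 cd79b libraries. Of the 79 lower genes, 52 lacked a count in at least 1 cd79b library and 14 lacked one in all 5. Both are smaller shares than over all 14423 genes, of which 12258 lacked a count in at least 1 cd79b library and 4526 in all 5. All genes include 2065 with no count in any thymic B library, however, and the 79 include 0. The shares are thus not of like sets, and their order decides nothing. Only 84 genes (0.582%) had libraries that did not overlap between the sides, 26 higher and 58 lower in the cd79b lines; 4 of the 27 higher and 26 of the 79 lower genes were among them. The bar plot of calls by setting shows the counts in both directions.

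**Figure D2:**
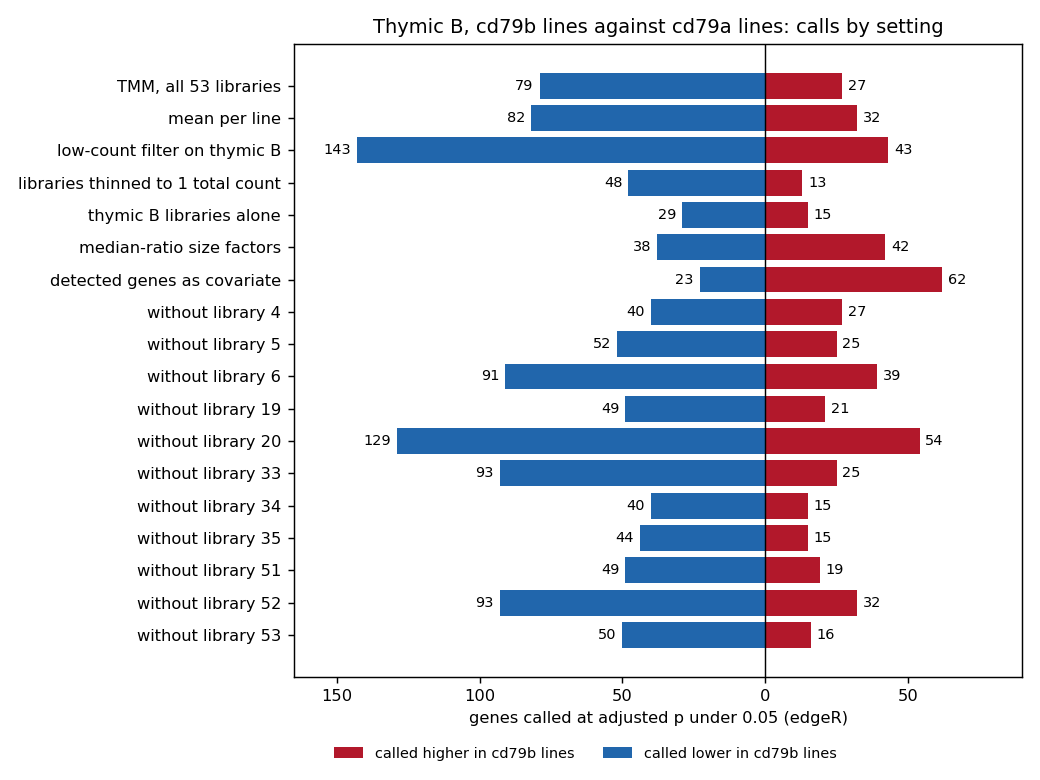
Genes called by edgeR at an adjusted p under 0.05 in thymic B cells, cd79b lines against cd79a lines, under each way of fitting; bars to the right are genes higher and bars to the left genes lower in the cd79b lines, and DESeq2 is not drawn. Lower calls are the majority except with median-ratio size factors (42 higher, 38 lower) and with detected genes as a covariate (62 higher, 23 lower).

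The clearest single difference was arhgef1 (ENSDARG00000055837), a guanine nucleotide exchange factor that activates small GTPases and in mammals acts behind G protein-coupled receptors of lymphocytes. It is named after its values were seen. Its level was 188, 132, 179, 198 and 177 CPM in the cd79b lines, against a lowest of 640.2, a median of 998 and a highest of 1482 CPM in the cd79a lines. The groups did not overlap, and the 5 cd79b libraries lay close together. The fitted log2 fold change was -2.84 ± 0.39 (SE), with an edgeR adjusted p of 7.05e-08, and it was called in all 18 ways of fitting, including the one with detected genes as a covariate. Within reporter it was -3.24 in the rag2 lines (edgeR adjusted p = 2.66e-05) and -2.35 in the lck lines (edgeR adjusted p = 0.16). In the gene order of the RefSeq assembly GRCz12tu, arhgef1 is the next protein-coding gene after cd79a on chromosome 16. The gene on the other side of cd79a, lipeb, had 0 to 37.5 CPM in the cd79b lines and 0 to 15.5 CPM in the cd79a lines (1.36 ± 1.31, edgeR adjusted p = 0.69). Farther out on that side, mrpl17, a mitochondrial ribosomal protein gene, averaged 7.18 ± 4.74 CPM in the cd79b lines and 33.4 ± 20.9 CPM in the cd79a lines (SD, n = 5 and 6), with a log2 fold change of -2.58 ± 0.99 that did not pass (edgeR adjusted p = 0.17). The neighbours tmem145, erfl1 and LOC100000772 were not matched. Of the nearest measured genes to cd79b on chromosome 12, PLEKHM1, a lysosome trafficking protein, was at 0 to 26.7 CPM in the cd79b lines and 0 to 36.0 CPM in the cd79a lines (-0.40 ± 1.00, edgeR adjusted p = 0.99). Whether the place of arhgef1 next to the gene that names one of the transgenes bears on its level was not tested.

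The same pairs of lines gave 4 other populations with 3 libraries on each side, and arhgef1 was lower in the cd79b line in both marrow B populations among them. In marrow B Stage I of the rag2 lines it was at 134, 187 and 159.6 CPM in the cd79b line, against 1108, 842 and 1167 CPM in the cd79a line (-2.63 ± 0.50, edgeR adjusted p = 0.0054). In marrow B Stage II it was at 189, 435 and 124 CPM in the cd79b line, against 1220.1, 1131 and 2587 CPM in the cd79a line (-2.71 ± 0.50, edgeR adjusted p = 0.0013). The libraries did not overlap in either population. The B Stage I call was lost without library 10, 11, 12 or 39 (adjusted p up to 0.56), and the B Stage II call without library 15 or 44 (adjusted p up to 0.27), while the fold change stayed between -3.20 and -2.40 in those fits. In thymic T Stage II the level was 271, 232 and 339 CPM in the cd79b line, against 184, 267 and 124 CPM in the cd79a line (0.56 ± 0.48, edgeR adjusted p = 1.00). In early T-committed marrow cells of the lck lines it was 363, 193 and 75.7 CPM in the cd79b line, against 288, 158 and 211 CPM in the cd79a line (-0.48 ± 0.48, edgeR adjusted p = 0.70). Both of these ranges overlapped. Whether the difference in T lineage cells departs from that in B lineage cells was not tested. Early B-committed marrow cells of the rag2 lines had 2 libraries against 1 and were not tested; arhgef1 was at 107 and 125 CPM in the cd79b line, against 205 CPM in the cd79a line. The panels for arhgef1, CLIC4 and mhc2dab show the other 6 pairs.

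**Figure D3:**
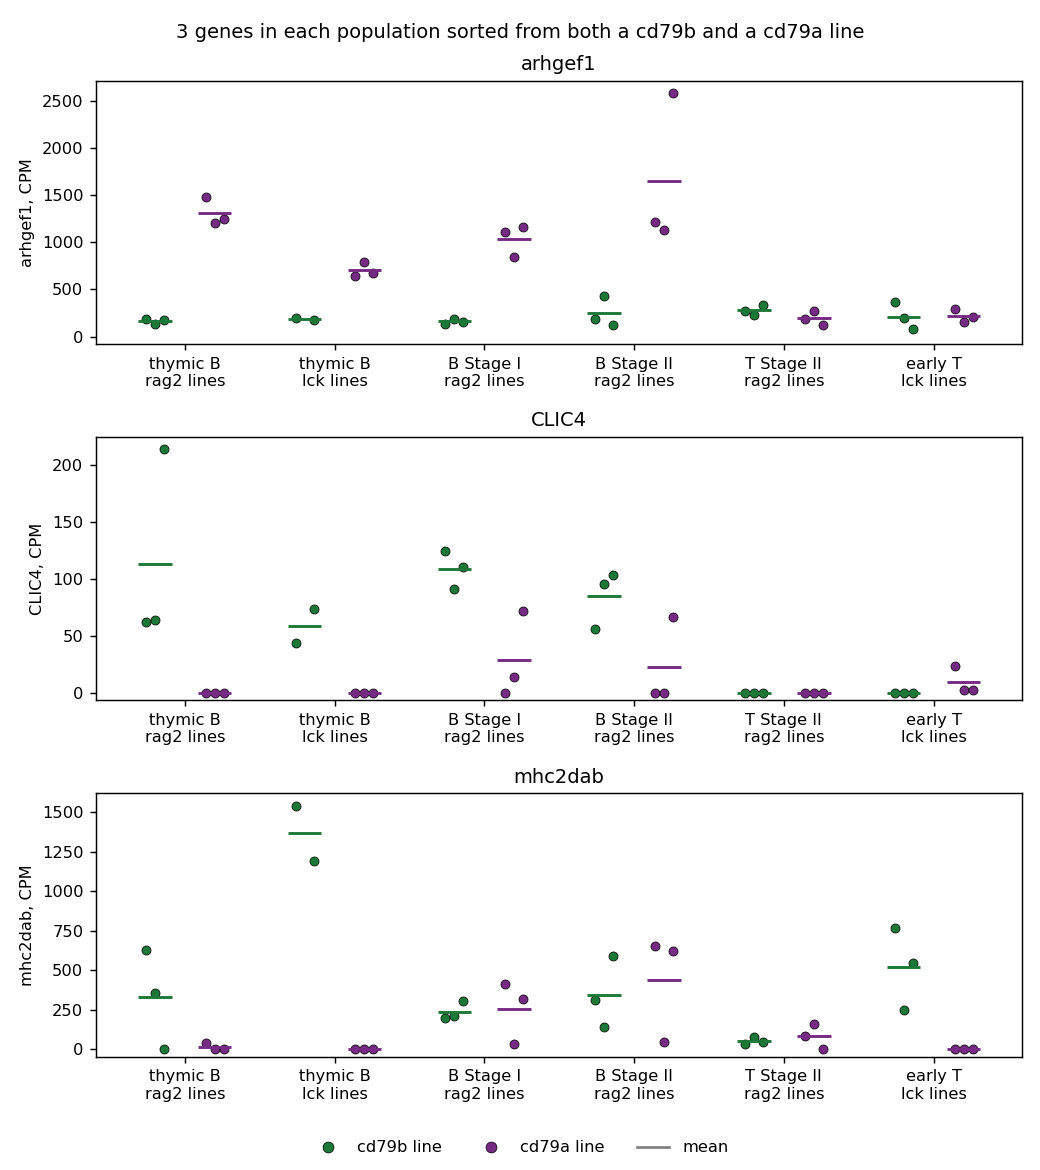
Level (CPM) of arhgef1, CLIC4 and mhc2dab in the 6 population pairs of a cd79b and a cd79a line with the same red reporter and at least 2 libraries on each side; points are libraries, bars are means, and the cd79b line stands left of the cd79a line. The cd79a libraries exceed all cd79b libraries for arhgef1 in thymic B, B Stage I and B Stage II, and CLIC4 is at 0 in the 6 thymic B libraries of the cd79a lines.

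CLIC4 (ENSDARG00000022995), a chloride intracellular channel family protein, was the only gene with a count in all 5 cd79b libraries and none in the 6 cd79a libraries. Its level was 62.5, 63.5, 214, 43.7 and 73.5 CPM in the cd79b lines and 0 CPM in every cd79a library, at least 375-fold higher against 3 counts per cd79a library (edgeR adjusted p = 1.33e-04). It was called in all 18 ways of fitting. In marrow B Stage I it was at 125, 91.6 and 111 CPM in the cd79b line, against 0, 13.7 and 72.0 CPM in the cd79a line. In B Stage II it was at 56.3, 95.5 and 103 CPM in the cd79b line, against 0, 0 and 66.8 CPM in the cd79a line. Neither marrow difference passed (edgeR adjusted p = 1.00 and 0.72). In early B-committed cells, not tested, it was at 45.8 and 59.8 CPM in the cd79b line, against 7.14 CPM in the cd79a line. Early T-committed cells of the lck lines went the other way, at a log2 fold change of -9.84 ± 4.69. DESeq2 fitted -24.6, so the size of that fold change depends on the fit and is no bound. The difference in early T-committed cells did not pass in edgeR (adjusted p = 0.23) and was called by DESeq2 (adjusted p = 3.90e-23). In T Stage II the fitted log2 fold change of CLIC4 was 0 with an SE of 0, also without single libraries, so it gives no comparison of levels there. A further gene higher in the cd79b lines without overlap, si:dkey-24p1.7 (ENSDARG00000089404; no role is given here), is named after its values were seen. It stood at 365, 155, 70.0, 307 and 212 CPM in the cd79b lines, against 0.548 to 13.9 CPM with a median of 4.61 CPM in the cd79a lines (4.76 ± 0.79, edgeR adjusted p = 3.05e-05). With detected genes as a covariate its adjusted p was 0.07.

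Among MHC class II genes, 1 of 20 listed genes (5%, beside 0.187% higher among all genes) was called, the beta chain gene mhc2dab (ENSDARG00000079105), and it was higher in the cd79b lines. DESeq2 called 2 of the 20 higher and 1 lower, beside 7.39% higher and 18.6% lower over all genes. The level of mhc2dab was 629.8, 354, 0, 1543 and 1194 CPM in libraries 4, 5, 6, 19 and 20, against 38.8 CPM in library 33, 0.101 CPM in library 34 and 0 CPM in the other 4 cd79a libraries. The groups overlapped only through library 6, which had no count. The log2 fold change was 6.72 ± 1.39 (edgeR adjusted p = 0.011), and it was not called with detected genes as a covariate (adjusted p = 0.35) or in the fit of the 11 libraries alone (adjusted p = 0.10). Within reporter it was 4.47 in the rag2 lines (edgeR adjusted p = 0.17) and 16.87 in the lck lines (edgeR adjusted p = 0.12). In the lck pair the cd79a line was at 0 CPM, so the size of that fold change is no bound. The early T-committed cells of the lck lines gave the same direction, at 766, 247 and 547 CPM in the cd79b line against 0, 0 and 2.69 CPM in the cd79a line (8.83 ± 2.22, edgeR adjusted p = 0.040). That call held without library 22 or 23 and was lost without each other library of the pair (adjusted p up to 0.12). In the rag2 lines, B Stage II libraries held 307, 137 and 589.6 CPM in the cd79b line and 654, 44.7 and 619 CPM in the cd79a line, and the early B-committed libraries, not tested, 67.9 and 291 CPM in the cd79b line and 35.4 CPM in the cd79a line. Class II beta chain genes have close relatives that can share reads, so the level of mhc2dab alone is uncertain. Over the whole list the median log2 fold change was 0.40, beside -0.12 for all genes. With genes at 0 on one side set to their bound it was 0.47, beside -0.43 for all genes with a usable value. Within reporter the list's median was -0.44 in the rag2 lines and 0.77 in the lck lines, beside 0 for all genes in each. That 0 includes the genes with no count in any thymic B library. The summed level was 11595 to 18208 CPM in the cd79b lines and 4455 to 16041 CPM in the cd79a lines.

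The rule for named genes gave 12 genes higher in the cd79b lines, and most of them were found in some cd79b libraries only. CLIC4, mhc2dab and smarca1 passed whichever library was left out. The chromatin remodelling ATPase gene smarca1 stood at 6.96, 81.1, 145, 0 and 76.2 CPM in the cd79b lines, against 5.43 CPM in library 51 and 0 CPM in the other 5 cd79a libraries (5.15 ± 1.04, edgeR adjusted p = 0.0029). The lipid peroxidase gene gpx4a was at 68.3, 86.5, 0, 80.7 and 0.558 CPM in the cd79b lines and at 0 CPM in all cd79a libraries, at least 193-fold higher (adjusted p in edgeR 0.0068, and 0.094 without library 19). RPGRIP1L, of the base of the cilium, was at 91.7 and 47.7 CPM in libraries 6 and 20 and at 0 CPM in the other 9 libraries, at least 114-fold higher (adjusted p in edgeR 0.038, and up to 0.15 without library 6, 20, 33, 34, 35, 51, 52 or 53). PPP6R2 (ENSDARG00000069654), a regulatory subunit of protein phosphatase 6, was at 0, 27.7, 17.7, 91.0 and 32.8 CPM in the cd79b lines and at 0 CPM in all cd79a libraries, at least 139-fold higher (edgeR adjusted p = 0.016, up to 0.082 without library 19, 51 or 53). The folds of gpx4a, RPGRIP1L and PPP6R2 use the mean of all cd79b libraries, those at 0 included. They cover counting error only, not the spread between libraries, which for these genes includes 0 on both sides.

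The other 6 were the sodium channel subunit gene SCN2B, the phospholipid flippase gene atp8a1, the protein kinase C beta gene PRKCB (ENSDARG00000008723), which in mammals signals behind the B cell receptor, the transposase-derived pgbd4, the osteopontin gene spp1 and ARL6IP6. PRKCB was at 0, 77.5, 64.1, 0 and 52.2 CPM in the cd79b lines, against 0 to 2.64 CPM in the cd79a lines (5.99 ± 1.51, edgeR adjusted p = 0.026). SCN2B was at 243, 38.9, 12.1, 26.3 and 17.7 CPM in the cd79b lines, against 0 to 3.51 CPM in the cd79a lines, without overlap (5.38 ± 1.30, edgeR adjusted p = 0.017). The calls were lost without library 6 or 19 for pgbd4 (adjusted p up to 0.11), without 4, 34 or 35 for SCN2B (up to 0.13), and without 5, 20, 33, 35 or 51 for PRKCB (up to 0.13). They were lost without 5, 19, 34, 35 or 53 for atp8a1 (up to 0.15), without 5, 19, 33, 35, 51, 52 or 53 for spp1 (up to 0.18), and without 6, 19, 33, 34, 35, 51, 52 or 53 for ARL6IP6 (up to 0.31).

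The 12 genes that the rule named as lower in the cd79b lines all had 0 counts in the 5 cd79b libraries, where 3 counts are 0.357 CPM on average. The rule largely fixes this. It ranks by fitted fold change, which is most extreme for genes at 0 on one side, and 14 of the 79 lower genes were at 0 in the cd79b lines. The 12 genes are therefore no sample of the 79. Among them, cdca8 of the chromosomal passenger complex, the spindle kinesin gene kif15 and the checkpoint gene mad1l1 act in chromosome segregation. ANAPC1 is a subunit of the anaphase-promoting complex and FEN1 is the flap endonuclease of DNA replication. FEN1 was at 0 CPM in the cd79b lines and at 0 to 44.9 CPM with a median of 30.3 CPM in the cd79a lines, at least 75.2-fold lower with an edgeR adjusted p of 0.010, and passed whichever library was left out. That fold, like those of the other genes at 0 on one side, covers counting error only and not spread between libraries.

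TBCK was at 0 CPM in the cd79b lines and at 3.19 to 94.9 CPM with a median of 28.9 CPM in the cd79a lines, at least 98.4-fold lower and without overlap (edgeR adjusted p = 0.027). ANAPC1 was at 0 CPM in the cd79b lines and at 10.0 to 65.5 CPM with a median of 19.9 CPM in the cd79a lines, at least 77.3-fold lower and without overlap (edgeR adjusted p = 0.030). The others were the amino acid transporter gene SLC38A5, the zinc finger gene znf16l, lyrm2, the calcium-binding s100s and PRORP, the nuclease of mitochondrial RNase P. Over the 11 genes given here the lower bound of the fold ran between 51.6 (cdca8) and 104 (s100s). All of these but FEN1 lost their call without some library: TBCK without 4, 5 or 6 (adjusted p up to 0.091), PRORP without 4, 5, 6 or 19 (up to 0.084), s100s without 4, 5, 6 or 34 (up to 0.26), kif15 without 4, 5, 6, 34 or 53 (up to 0.12) and ANAPC1 without 4, 5, 6, 19, 33 or 35 (up to 0.088). cdca8 lost its call without 4, 5, 6, 19, 34, 35 or 51 (up to 0.11), lyrm2 without 4, 5, 6, 19, 20, 34, 35 or 53 (up to 0.090), mad1l1 without 4, 5, 6, 19, 33, 34, 51 or 53 (up to 0.11), znf16l without 4, 5, 6, 19, 20, 33, 51 or 53 (up to 0.31) and SLC38A5 without 4, 5, 6, 19, 20, 34, 35, 51 or 53 (up to 0.12).

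A further gene with no count in the cd79b lines, si:dkey-56m19.5, is named after its values were seen, since it was called in all 18 ways of fitting. It was at 0 CPM in the cd79b lines and at 13.8 to 147 CPM with a median of 65.8 CPM in the cd79a lines, at least 194-fold lower (edgeR adjusted p = 0.0028).

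Genes with a count in every library were also looked at apart. Of 1895 such genes, edgeR called 1 higher and 27 lower in the cd79b lines, beside 27 higher (0.187%) and 79 lower (0.548%) of all 14423 genes. Of the 27 lower genes, 16 were cytosolic ribosomal protein genes. That list has 80 genes, of which 78 to 80 were detected in each library. The median log2 fold change of the 1895 genes was -0.04 under TMM, and TMM shifted them by a median of -0.23 relative to median-ratio scaling. HMGN2 (ENSDARG00000099572), a nucleosome-binding protein, was among them and is named after its values were seen. It was at 145, 337, 323, 430.5 and 318 CPM in the cd79b lines, against 487 to 1659.9 CPM with a median of 794 CPM in the cd79a lines. The libraries did not overlap (-1.93 ± 0.32, edgeR adjusted p = 3.05e-05), and the adjusted p was 0.38 with detected genes as a covariate.

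Cytosolic ribosomal proteins, the protein part of the translating ribosome, were the listed group with the most calls. Of 80 genes, 16 were lower (20%) and 0 were higher in the cd79b lines by edgeR, beside 0.548% lower among all genes. At an unadjusted p under 0.05, 67 were lower (83.75%, beside 9.68% of all genes) and 0 higher. DESeq2 called 27 lower, beside 18.6% of all genes. The median log2 fold change was -0.72, with 76 of 80 negative, beside -0.12 for all genes. Over all genes with a usable value, with genes at 0 on one side set to their bound, the median was -0.43. The summed level was 263981, 298632, 327529, 319152 and 348252 CPM in the cd79b lines, against a lowest of 323488, a median of 389085 and a highest of 495640.0 CPM in the cd79a lines. The sums did not overlap within the lck lines, and within the rag2 lines library 6 lay above library 33. Detected members numbered 78 to 80 in the cd79b lines and 79 or 80 in the cd79a lines. RPL4, of the large subunit, was at 1648, 1478, 3717, 3607 and 4149.6 CPM in the cd79b lines, against 4088 to 6996 CPM in the cd79a lines (-1.13 ± 0.23, edgeR adjusted p = 0.0032).

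Further members named by the rule were RPL23A (-1.02 ± 0.22, edgeR adjusted p = 0.0068) and RPS15 (-1.15 ± 0.26, edgeR adjusted p = 0.010), the second of which was not called without library 4 (adjusted p = 0.057). The number of lower ribosomal genes was not stable. It was 4 with median-ratio size factors, where the list's median was -0.48, and 0 with detected genes as a covariate, where it was -0.31. It was 9 after thinning to 7756073 counts and 30 after a filter on low counts, where 1.66% of all genes were lower. Without single libraries it was 4 (library 19), 5 (library 4), 6 (libraries 34 and 51), 7 (libraries 35 and 53), 22 (library 33), 24 (library 52) and 26 (library 6). The list's median was negative under each of these scalings. Within reporter it was -0.57 in the rag2 lines and -0.89 in the lck lines. In the populations with 3 libraries on each side it was -0.29 in T Stage II, 0.03 in B Stage I, 0.04 in B Stage II and -0.64 in early T-committed cells. Some members, such as RPL5, stand under separate gene IDs with the same symbol. Related genes can share reads, so single genes of this list are uncertain. The elongation factor gene eef1a1l1, named after its values were seen, was also lower in the cd79b lines, at 5042, 4033, 4749, 9417 and 8475 CPM against 7374 to 14375 CPM with a median of 8478 CPM in the cd79a lines (-0.97 ± 0.21, edgeR adjusted p = 0.0065).

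Genes of DNA replication and of mitosis were called lower in small numbers, at a share above the 0.548% of all genes, while their summed levels overlapped. Of 49 replication genes, 3 were lower (6.12%) and 0 higher by edgeR. At an unadjusted p under 0.05, 15 were lower (30.6%, beside 9.68% of all genes) and 3 higher (6.12%, beside 5.35%). The 3 called genes were the helicase subunit genes MCM2 and MCM5 and FEN1. MCM2 was at 1.03 CPM in library 19 and 0 CPM in the other cd79b libraries, against 0 to 70.8 CPM with a median of 37.3 CPM in the cd79a lines (-7.69 ± 1.58, edgeR adjusted p = 0.0032). MCM5 was at 0, 0, 7.95, 1.26 and 0 CPM in the cd79b lines, against 0 to 75.7 CPM with a median of 43.5 CPM in the cd79a lines (-4.74 ± 1.04, edgeR adjusted p = 0.0068). Library 33 of the cd79a lines, which had no count of either gene, made both ranges overlap. Members of the list with a count numbered 11, 9, 22, 28 and 26 in the cd79b lines and 19 to 41 in the cd79a lines. Over all genes, detected genes numbered 3803, 5156, 5941, 6176 and 7063 in the same cd79b libraries and 5884 to 8910 in the cd79a lines. The summed level of the list was 1233, 448, 1058, 843 and 979 CPM in the cd79b lines, against 430.2 to 1549 CPM with a median of 1180.2 CPM in the cd79a lines.

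Of 37 mitosis and spindle genes, 3 were lower (8.11%) and 0 higher by edgeR. At an unadjusted p under 0.05, 13 were lower (35.1%, beside 9.68% of all genes) and 0 higher. The called genes were cdca8, the ubiquitin-conjugating enzyme gene UBE2C and the kinetochore gene nuf2. UBE2C was at 9.37 CPM in library 20 and 0 CPM in the other cd79b libraries, against 0 to 80.3 CPM with a median of 36.8 CPM in the cd79a lines (-4.60 ± 1.06, edgeR adjusted p = 0.011, and 0.059 without library 34). The nuf2 gene was at 0.229 CPM in library 19 and 0 CPM in the other cd79b libraries, against 0 to 38.4 CPM in the cd79a lines (-8.65 ± 2.23, edgeR adjusted p = 0.031, and up to 0.11 without library 4, 5, 19, 34 or 51). Members with a count numbered 7, 5, 9, 18 and 18 in the cd79b lines and 6 to 34 in the cd79a lines, with library 33 at 6. Detected genes over all genes, given above, were also fewer in the cd79b lines. The median log2 fold change was -1.46 for replication and -2.75 for mitosis, the second being -1.52 with genes at 0 set to their bound. With detected genes as a covariate the medians were -0.27 and -0.87 and edgeR called no member of either list. With median-ratio size factors it called 3 replication and 1 mitosis gene lower, and DESeq2 called 20 and 21, beside 18.6% of all genes. Without library 33 there were 5 lower replication genes and 6 lower mitosis genes. The lower mitosis genes were 0 without library 34 and 1 without library 4, 5, 19 or 51. The plot of lists by library shows the ribosomal sums and the detected members.

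**Figure D4:**
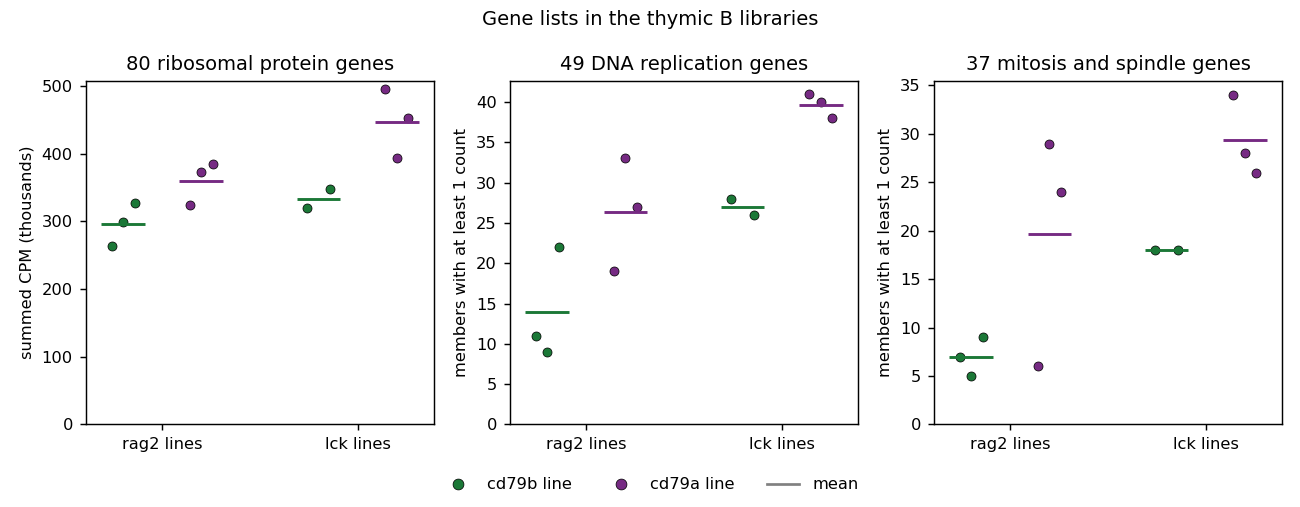
Summed level of 80 ribosomal protein genes (CPM) and the number of detected genes among 49 DNA replication and 37 mitosis and spindle genes in the 11 thymic B libraries; points are libraries, bars are means, and the cd79b line stands left of the cd79a line in each reporter pair. In the lck lines every cd79b library lies below every cd79a library in all 3 panels, while the rag2 lines overlap. Detected genes over all genes show the same order, apart in the lck lines and overlapping in the rag2 lines.

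Energy metabolism and protein turnover gave few calls. Of 93 nuclear genes of the respiratory chain, 3 were lower (3.23%, beside 0.548% of all genes) and 0 higher in the cd79b lines by edgeR, with 21 lower and 1 higher at an unadjusted p under 0.05, and the list's median was -0.64, turning to 0.10 with detected genes as a covariate. At the unadjusted level 22.6% of the list was lower, beside 9.68% of all genes. DESeq2 called 13 lower and 1 higher, beside 18.6% lower and 7.39% higher over all genes. Without library 4 the edgeR count was 0, without library 5, 19, 34, 35, 51 or 53 it was 1, and without library 33 it was 2. The 3 genes were the ATP synthase genes ATP5PO and ATP5F1B and the complex III gene UQCRC2. ATP5PO was at 1.29, 58.0, 95.0, 173 and 155 CPM in the cd79b lines, against 148 to 347 CPM with a median of 286 CPM in the cd79a lines (-1.84 ± 0.46, edgeR adjusted p = 0.026, and up to 0.12 without library 4 or 35). ATP5F1B (edgeR adjusted p = 0.041) was lost without library 4, 5, 19, 34, 35, 51 or 53 (up to 0.14), and UQCRC2 (edgeR adjusted p = 0.049) without 4, 5, 6, 19, 33, 34, 51, 52 or 53 (up to 0.13). Median-ratio size factors left 0 of these 3 calls. Of 47 proteasome genes, 1 was higher (2.13%, beside 0.187% of all genes) by edgeR and 2 higher and 1 lower by DESeq2. The edgeR call was PSMD2 (ENSDARG00000099653) of the regulatory particle, at 160.1, 253, 0, 18.2 and 0 CPM in the cd79b lines and 0 to 7.10 CPM in the cd79a lines (4.60 ± 1.23, edgeR adjusted p = 0.042, and up to 0.13 without library 4, 5, 19, 33, 34, 35 or 53). Of 74 splicing factors, 1 was lower (1.35%, beside 0.548% of all genes) by edgeR and 4 higher and 8 lower by DESeq2. The edgeR call was the Sm protein gene SNRPG (-2.33 ± 0.64, edgeR adjusted p = 0.047, and up to 0.15 without library 4, 5, 6, 33, 34, 35 or 53).

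Chromatin regulators, 124 genes, gave 1 higher and 1 lower call in edgeR (0.806% each, beside 0.187% higher and 0.548% lower among all genes) and 11 higher and 10 lower in DESeq2. The edgeR calls were smarca1 and the histone demethylase gene kdm3b (-4.25 ± 1.17, edgeR adjusted p = 0.049, and up to 0.19 without library 4, 5, 6, 19, 34, 35, 51 or 53). The list's summed level did not overlap between the sides, at 9857, 8082, 8603, 8129 and 7296 CPM in the cd79b lines and 4523 to 6605 CPM with a median of 5518 CPM in the cd79a lines. No other list of the 23 had sums without overlap. These sums use the deposited totals. The TMM factors were 0.98 to 1.21 in the cd79b lines and 0.71 to 1.05 in the cd79a lines, so the gap is smaller on TMM-scaled totals. The members with a count numbered 63 to 99 in the cd79b lines and 87 to 104 in the cd79a lines. The list's median was 0.10. Immediate early and heat shock genes, 35 of them, gave 0 calls in edgeR and a median of 0.83. Within reporter that median was 0 in the rag2 lines and 2.06 in the lck lines. At an unadjusted p under 0.05, 7 were higher (20%, beside 5.35% of all genes) and 0 lower, and DESeq2 called 2 higher and 2 lower. Over all genes DESeq2 called 7.39% higher and 18.6% lower. EGR3, a transcription factor induced by antigen receptor signals, is named after its values were seen, at 136 to 1178 CPM in the cd79b lines and 18.4 to 208 CPM in the cd79a lines (2.82 ± 0.73, edgeR adjusted p = 0.053). Its adjusted p with detected genes as a covariate was 0.43.

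Lists of B cell and T cell genes gave no call in edgeR, while DESeq2 called some of their members. Over all genes DESeq2 called 7.39% higher and 18.6% lower. At an unadjusted p under 0.05 in edgeR, 5.35% of all genes were higher and 9.68% lower. None of 23 genes of the B cell receptor and B identity passed in edgeR (DESeq2 0 higher and 2 lower), with 1 higher and 1 lower at an unadjusted p under 0.05 and a median of 0.13, or -0.35 with detected genes as a covariate. Of 19 immunoglobulin genes 0 passed (DESeq2 0 higher and 3 lower), with 2 higher and 2 lower at that level, and their summed level was 8541, 10393, 6942, 5118 and 4939 CPM in the cd79b lines and 3751 to 6899.6 CPM in the cd79a lines. Of 21 T lineage genes 0 passed (DESeq2 5 higher and 5 lower), with 5 higher (23.8%) and 3 lower (14.3%) at that level. Their sums were 1323, 693, 1219, 885 and 1016 CPM in the cd79b lines and 299 to 729 CPM in the cd79a lines. The 5 T lineage markers above, all in this list, summed to only 0 to 111 CPM and 10.5 to 50.6 CPM. Most of the sums thus came from other members, which include ptprc, and their cell of origin was not tested. Of 15 V(D)J recombination genes 0 passed (DESeq2 1 higher and 1 lower), with 0 higher and 1 lower at that level. Of these 4 lists, detected genes as a covariate gave edgeR calls of 1 immunoglobulin gene higher and 1 recombination gene lower. Together 15 lists had no called member. Their 354 different genes held 29 higher and 19 lower ones at an unadjusted p under 0.05 in edgeR, and DESeq2 called 26 higher and 38 lower. PNRC2, a coactivator and decapping cofactor, and tmsb4x, the actin-binding thymosin, are abundant genes named after their values were seen. PNRC2 was at 9231, 8425, 7749.6, 4850.4 and 5471 CPM in the cd79b lines, against 1872 to 4824 CPM in the cd79a lines, without overlap on the deposited totals (0.74 ± 0.22, edgeR adjusted p = 0.068, and 0.0040 with median-ratio size factors). The narrow gap, 4850.4 CPM in library 19 against 4824 CPM, is lost on TMM-scaled totals. The TMM factor was 1.15 for library 19 and at most 1.05 in the cd79a lines. tmsb4x was at 71093, 71902, 62001, 48272 and 37554 CPM in the cd79b lines, against 15583 to 53679.5 CPM in the cd79a lines (0.46 ± 0.23, edgeR adjusted p = 0.33). The plot of list medians sets every list beside all genes tested.

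**Figure D5:**
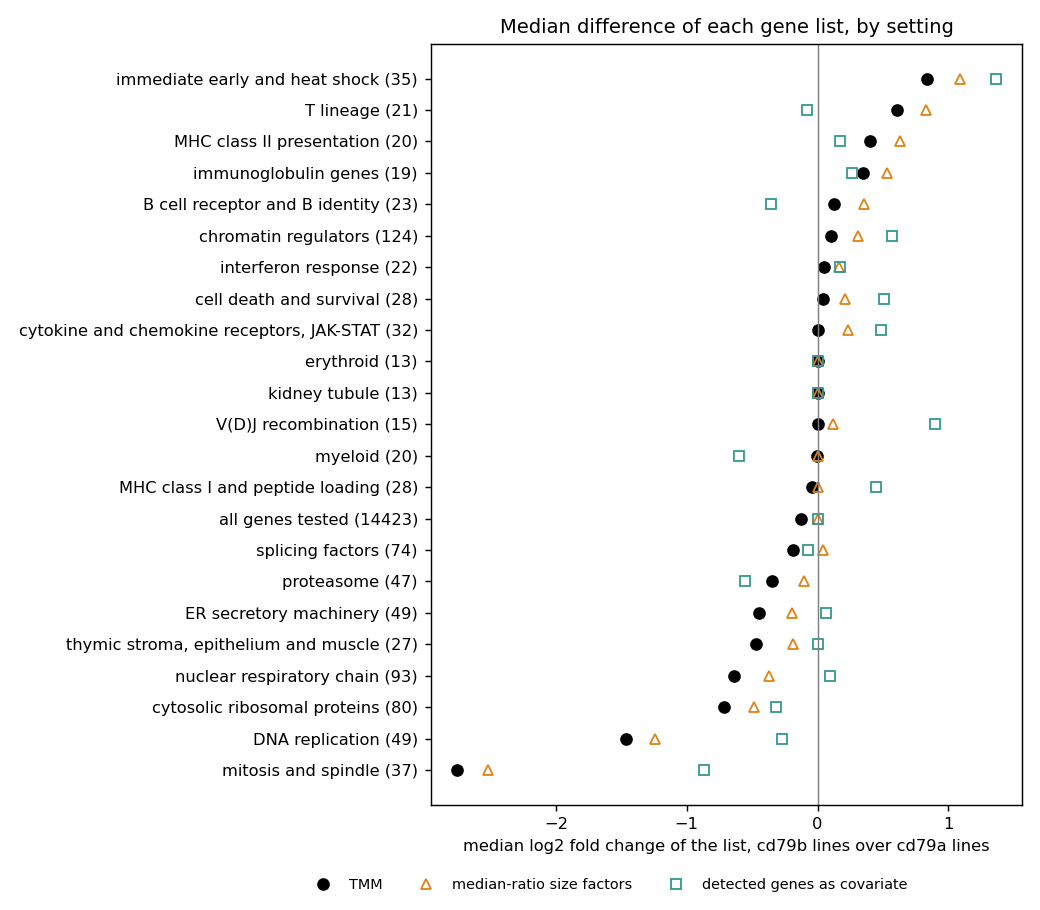
Median log2 fold change (cd79b lines over cd79a lines) of each gene list in thymic B cells, with the number of genes matched, under TMM, median-ratio size factors and detected genes as a covariate; the list of thrombocyte and NK or cytotoxic genes, at -5.53 with 13 genes, is not drawn. Mitosis, replication and ribosomal protein lists have the lowest medians under TMM, and with the covariate the replication median is -0.27.

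Within one red reporter, genes were called in the rag2 lines and none in the lck lines, and the direct test of a dependence on the reporter gave few genes. These pairs share their libraries with the comparison above. Between rag2RFP-cd79bGFP (7756073 to 8677058 counts, 3803 to 5941 detected genes) and rag2RFP-cd79aGFP (9118484 to 10144626 counts, 5884 to 6739 detected genes), edgeR called 63 genes (0.437%), 17 higher and 46 lower, with 2222 at an unadjusted p under 0.05 and 3081 by DESeq2. Median-ratio scaling called 28 higher and 22 lower. Without library 4, which had the fewest detected genes of all 11, 8 genes passed. Without library 34 or 35 there were 15 and 14 calls, without library 5 there were 35, without library 33 there were 37 and without library 6 there were 121. Between lckmCherry-cd79bGFP (8732327 and 8960775 counts, 6176 and 7063 detected genes) and lckmCherry-cd79aGFP (15347074 to 18778603 counts, 7892 to 8910 detected genes), edgeR called 0 genes (0%), with 1312 at an unadjusted p under 0.05 and 2226 by DESeq2. Leaving out single libraries gave 1 to 3 calls without library 4, 5, 19 or 20 and 0 without each other library. The cd79b side of that pair had 2 libraries. The reporter by line interaction passed for 12 genes (0.0832%), with 1353 at an unadjusted p under 0.05 and 2881 by DESeq2. Of the 12, 0 were among the 106 calls, which are 0.735% of all genes. Fold changes of opposite sign in the rag2 and lck pairs cancel in the test behind those calls, so this overlap cannot decide anything. The interaction count was 1 without library 19, 2 without library 33, 51 or 53, 3 without library 4, 8 without library 52, 23 without library 20, 29 without library 6, and 9 to 15 without libraries 34, 35 and 5. All 79 lower genes and 24 of the 27 higher ones had the same sign in both pairs, which the choice of these genes largely fixes. Their median log2 fold change was -4.99 in the rag2 lines and -3.20 in the lck lines for the lower genes, and 6.11 in the rag2 lines and 5.72 in the lck lines for the higher genes.

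The same contrast was tested in the 4 population pairs with 3 libraries on each side. In T Stage II of the rag2 lines, with 8783597 to 10886149 counts and 8449 to 11360 detected genes in the cd79b line and 11337437 to 14752089 counts and 8483 to 9057 detected genes in the cd79a line, edgeR called 0 genes (0%; 419 at an unadjusted p under 0.05, 558 by DESeq2). In B Stage I, with 12011534 to 15429662 counts and 8892 to 10087 detected genes in the cd79b line and 12767518 to 14723494 counts and 9781 to 10562 detected genes in the cd79a line, it called arhgef1 alone (0.00693%), and 0 genes without library 10, 11, 12 or 39. There 485 genes were at an unadjusted p under 0.05 and DESeq2 called 508. In B Stage II, with 7793499 to 14555107 counts and 7225 to 9283 detected genes in the cd79b line and 11734075 to 13162210 counts and 7368 to 9291 detected genes in the cd79a line, it called 8 genes (0.0555%), 3 higher (0.0208%) and 5 lower (0.0347%), with 925 at an unadjusted p under 0.05 and 1015 by DESeq2. That count was 1 without library 15 or 44, 3 without library 43 and 4 without library 42. In early T-committed cells of the lck lines, with 7295854 to 9494363 counts and 4277 to 6339 detected genes in the cd79b line and 12991842 to 14089636 counts and 7661 to 7929 detected genes in the cd79a line, it called 209 (1.45%), 75 higher (0.52%) and 134 lower (0.929%), with 2678 at an unadjusted p under 0.05 and 3366 by DESeq2, and median-ratio scaling called 140 higher and 80 lower. That count was 57 without library 55, 78 without library 54, 82 without library 56 and 138 without library 22. Neither counts nor detected genes overlapped in that pair, and their part in the number of calls was not tested.

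Of the 79 genes lower in thymic B cells, 4 (5.06%) were also lower at an unadjusted p under 0.05 in T Stage II, beside 0.964% of all genes. In B Stage I they were 2 (2.53%), beside 2.35% of all genes, and in B Stage II 4 (5.06%), beside 2.95%. In early T-committed cells they were 25 (31.6%), beside 12.1% of all genes. In that pair the cd79b line also had fewer counts and fewer detected genes, without overlap. The called genes all had a count in thymic B cells, while all genes include 2065 without one, so these shares are not of like sets. Those called there in the same direction were 1 in each marrow B population and 2 in early T-committed cells. Of the 27 higher genes, 1 (3.70%) was also higher at an unadjusted p under 0.05 in T Stage II, beside 1.94% of all genes, and 2 (7.41%) in B Stage I, beside 1.01%. In B Stage II they were 3 (11.1%), beside 3.46% of all genes, and in early T-committed cells 6 (22.2%), beside 6.50%, of which 2 were called. The called genes were arhgef1 in both marrow B populations and, in early T-committed cells, mhc2dab, AVEN, SNRNP200 and kdm3b.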

How the data were processed

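The deposited table holds raw counts of reads per gene for 53 libraries, 11 of them thymic B. Per the submitters' processing notes, the tools were FastQC 0.11.8, STAR, featureCounts and DESeq2 1.38.3, with the genome build GRCz11; their settings are not given in the sources used here. Gene IDs were paired with symbols for 13909 of 14423 genes, and 1238 IDs share a symbol with another.

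Counts were tested with edgeR 4.0.16 (quasi-likelihood test, TMM scaling, R 4.3.3, limma 3.58.1) over all 53 libraries and 14423 genes with no filter. The model had a mean for each of 15 other groups, a thymic B mean, a term for lck against rag2 and a term for cd79b against cd79a. Adjusted p-values are Benjamini-Hochberg over all genes, with a threshold of 0.05. Levels are CPM of the deposited totals, while fitted fold changes use TMM-scaled totals and can differ from the ratio of mean CPM. Overlap between the sides is also judged on the deposited totals. A gene with 0 counts on one side has its fold given as the mean CPM of the other side against 3 counts per library. Such a bound covers counting error only, not spread between libraries. The gfp row counted in the totals and was not tested with edgeR. gfp and detected genes were compared with exact permutation tests within reporter (scipy 1.17.1). The model and DESeq2 1.42.0 were also run on simulated counts. The outcome is not given here, and no result rests on it.

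The named genes are cd79a, cd79b, rag2 and lck, the 12 called genes of largest fold change in each direction, and up to 4 called members of each list by adjusted p. A gene entered the first of these choices if it averaged 10 CPM or more in the higher lines, moved one way in both reporter pairs and had a name other than a clone identifier. Of the genes so named, 2 are not reported here. IGLON5, igldcp, rps6kal and PSMC3IP, which the symbol patterns caught but whose annotation is of another family, were taken out of their lists after their values were seen. Of 24 gene lists, 23 had members in the table and that of mitochondrially encoded genes had 0. The members and lists were chosen with earlier results of these data known. Alternatives were DESeq2, median-ratio size factors, a minimum of 10 counts in 3 thymic B libraries, the 11 libraries alone, 4 group means, detected genes as a covariate, thinning to 7756073 counts, and leaving out each library. Libraries of one group differed by more than counting noise in each of the pairs examined, so none was taken for a second count of another. This cannot tell whether libraries of a group came from the same animals or the same pooled cells.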

Additional observations from a re-analysis of the deposited data

Results flagged for a closer look

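In 52 sets of library values, made of the levels and list sums of the cd79b or the cd79a lines in thymic B cells, a lone extreme library was looked for by its gap to the next, and chance gives about 1 such library in 20 sets. The search found 4. The summed level of erythroid genes was 1737.57 CPM in library 19 of the cd79b lines, against 151 to 541 CPM in the other cd79b libraries. The summed level of thrombocyte and NK or cytotoxic genes was 58.5 CPM in library 6 of the cd79b lines, against 0 to 4.35 CPM in the others. The summed level of interferon response genes was 797 CPM in library 53 of the cd79a lines, against 321 to 491 CPM in the others. The summed level of cell death and survival genes was 3209 CPM in library 33 of the cd79a lines, against 1594 to 2032 CPM in the others.

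The difference between cd79b and cd79a lines depended on the red reporter for 12 genes by edgeR's interaction term. Each value is the log2 fold change in the lck lines minus that in the rag2 lines, and where a group stood at 0 its size depends on the prior count and is no bound. It was positive for carf (18.60), RINT1 (18.48), si:dkeyp-116a7.2 (18.40), ENY2 (13.03), TPR (ENSDARG00000103004, 8.55) and TTN (ENSDARG00000028213, 7.63). It was negative for macf1a (-4.40), NOL6 (-10.02), INO80C (-12.47), TEX10 (-18.91), WDR89 (-20.06) and si:dkey-68o6.6 (-24.80). Several of these rest on single libraries. In libraries 19 and 20 of lckmCherry-cd79bGFP, carf was at 140 and 0 CPM, RINT1 at 87.0 and 0 CPM and si:dkeyp-116a7.2 at 0 and 45.0 CPM. TEX10 was at 158, 0 and 2.30 CPM in libraries 4, 5 and 6 of rag2RFP-cd79bGFP. INO80C, of a chromatin remodelling complex, was at 237, 69.0 and 71.0 CPM in rag2RFP-cd79bGFP, against 3.29, 24.2 and 17.1 CPM in rag2RFP-cd79aGFP, and at 0 and 0.112 CPM in lckmCherry-cd79bGFP, against 58.6, 51.0 and 18.9 CPM in lckmCherry-cd79aGFP (edgeR adjusted p = 0.028). ENY2, of a transcription and export complex, was at 0 CPM in the 3 libraries of rag2RFP-cd79bGFP, against 58.3, 99.6 and 142 CPM in rag2RFP-cd79aGFP, and at 73.7 and 66.5 CPM in lckmCherry-cd79bGFP, against 109, 35.0 and 46.0 CPM in lckmCherry-cd79aGFP (edgeR adjusted p = 0.033).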

How the results depend on the processing

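No paired analysis was possible because each library has a sample number of its own. The 106 calls between the cd79b and cd79a lines were 3472 by DESeq2, 186 after the filter on low counts, 61 after thinning, 44 in the 11 libraries alone and 55 to 183 without single libraries. The 27 higher calls were 989 by DESeq2, 62 with detected genes as a covariate, 43 after the filter, 42 with median-ratio size factors, 15 in the 11 libraries alone, 13 after thinning and 15 to 54 without single libraries. The 79 lower calls were 2483 by DESeq2, 143 after the filter, 48 after thinning, 38 with median-ratio size factors, 29 in the 11 libraries alone, 23 with the covariate and 40 to 129 without single libraries. DESeq2 gave 3081 calls in the rag2 lines, 2226 in the lck lines, 2881 for the interaction, 558 in T Stage II, 508 in B Stage I, 1015 in B Stage II and 3366 in early T-committed cells. Without single libraries these counts were 8 to 121, 0 to 3, 1 to 29, 0, 0 to 1, 1 to 8 and 57 to 268 in that order. The filter tested 8635 genes and the fit of 11 libraries 12358; the cause of the other shifts was not tested. Detected genes (-1617) and gfp (-2.94) stayed lower in the cd79b lines under all 13 alternatives each. Among single genes, lipeb turned to -0.19 without library 6 and PLEKHM1 to 0.41 without library 53, in ranges of -0.19 to 3.53 and -0.81 to 0.41 without single libraries. For the named genes, 689 values kept their direction and side of the threshold, 255 lost and 7 gained a call. The depth ran from 7756073 to 18778603 counts. A gene without a count in the shallowest library can hold up to 3 counts there, or 0.387 CPM.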

Other observations

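Several called genes outside the named set and the lists are given as values, chosen after they were seen. PDE7A (ENSDARG00000045305), a cyclic AMP phosphodiesterase, was at 3.09, 14.5, 18.7, 16.3 and 25.8 CPM in the cd79b lines, against 49.6 to 181 CPM with a median of 90.8 CPM in the cd79a lines, without overlap, and passed whichever library was left out (-3.09 ± 0.69, edgeR adjusted p = 0.0096). SERPINB8 (ENSDARG00000095830), a serine protease inhibitor, was at 109, 279, 124, 101 and 60.9 CPM in the cd79b lines, against 0 to 56.0 CPM in the cd79a lines, also without overlap (2.57 ± 0.68, edgeR adjusted p = 0.039, up to 0.10 without library 5, 19, 34, 51, 52 or 53). The transcription factor gene ets2 (ENSDARG00000103980) was at 857, 68.0, 53.5, 0.115 and 398 CPM in the cd79b lines, against 0 to 87.1 CPM in the cd79a lines (4.1 ± 0.91, edgeR adjusted p = 0.017, up to 0.15 without library 4, 20, 34, 51 or 53). Library 19 of the cd79b lines was the low one of these 5 for ets2.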
